A study of Mus musculus with 28 samples.

Results

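Cytokine and receptor genes of macrophage activation that lie outside the interleukin-1 (IL-1) family were followed in mouse pancreatic macrophages through acute pancreatitis and its recovery. They were 8 of the 25301 genes of the deposited table and were taken by symbol. The 5 cytokine genes were Tnf (NCBI Gene ID 21926), Il6 (16193), Il12b (16160), Il27 (246779) and Il10 (16153), and the 3 receptor genes were Tnfrsf1b (21938), Il10ra (16154) and Il4ra (16190). All mice were wild-type C57BL/6J, and the macrophages were sorted from their pancreas by flow cytometry. Pancreatitis was induced with caerulein, a peptide that overstimulates the digestive enzyme-making acinar cells. The groups were NC (3 libraries), D0 of the pancreatitis model (5), D1 AP+Lac (6) and D1 AP+PBS (6) at day 1 of recovery, and D3 AP+Lac (4) and D3 AP+PBS (4) at day 3. AP is acute pancreatitis and Lac is lactate, the tested agent, with phosphate-buffered saline (PBS) as its vehicle. The labels leave NC unexplained, so it is used as a name, and they give no age, lactate dose or sort markers. They also do not state that each library stands for its own mouse, so p-values measure only the spread between these libraries, which may be technical.

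Tumor necrosis factor (TNF) and interleukin-6 (IL-6) are released early by activated macrophages and spread inflammation, whereas interleukin-10 (IL-10) restrains macrophage activation through a receptor whose ligand-binding chain is encoded by Il10ra. Il12b encodes p40, a chain shared by IL-12 and IL-23, and Il27 encodes the p28 chain of IL-27. Both chains are made by macrophages and dendritic cells and act on T cells and other leukocytes. Interleukin-4 and interleukin-13, which drive the alternative activation of macrophages seen in tissue repair, signal through the chain encoded by Il4ra, and Tnfrsf1b encodes TNF receptor 2.

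Expression was measured as FPKM (fragment numbers divided by transcript length and by library size). The values of a gene stepped in whole multiples of the value of 1 fragment, which gave 33273339 to 41060509 fragments per library. For the 8 genes these ran from 32 fragments (Il12b at D0) to 57874 (Il4ra at D0), so the Il12b values at D0 rested on few fragments. All 8 passed the filter of 1 FPKM in at least 3 libraries. The 12 macrophage markers were all at 1 FPKM or more in every group, with a summed level of 7549 to 20834 FPKM per library. Markers of other cell types were present too, and many of their calls, though not all, are given with the comparisons. The day 1 libraries numbered 5 and 6 stood apart from the other day 1 libraries in both arms, at 22.2 to 34.7 against -15.2 to 6.3 on a principal component holding 9.38% of the variance. On the component holding 14.3%, the library labelled D1 AP+PBS 5 was at -24.1. The D1 AP+Lac libraries lay between -22.7 and -4.6 and the other 5 D1 AP+PBS libraries between 10.4 and 35.2 on that component. Where leaving out the day 1 libraries numbered 5 and 6 changed the call of a member, the value without them is given as well.

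The receptor genes were the more abundant. Mean levels per group lay between 37.8 and 207 FPKM for the 3 receptors and between 0.531 and 26.7 FPKM for the 5 cytokines. Tnf was the highest of the cytokine genes in each group (14.8 to 26.7 FPKM), and Il12b had the lowest single value, 0.311 FPKM. Il4ra, Il12b and Il10ra separated groups, as the plot of FPKM by library shows, whereas the libraries of Tnf and Il6 overlapped between neighbours throughout the order of their group means.

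**Figure D1:**
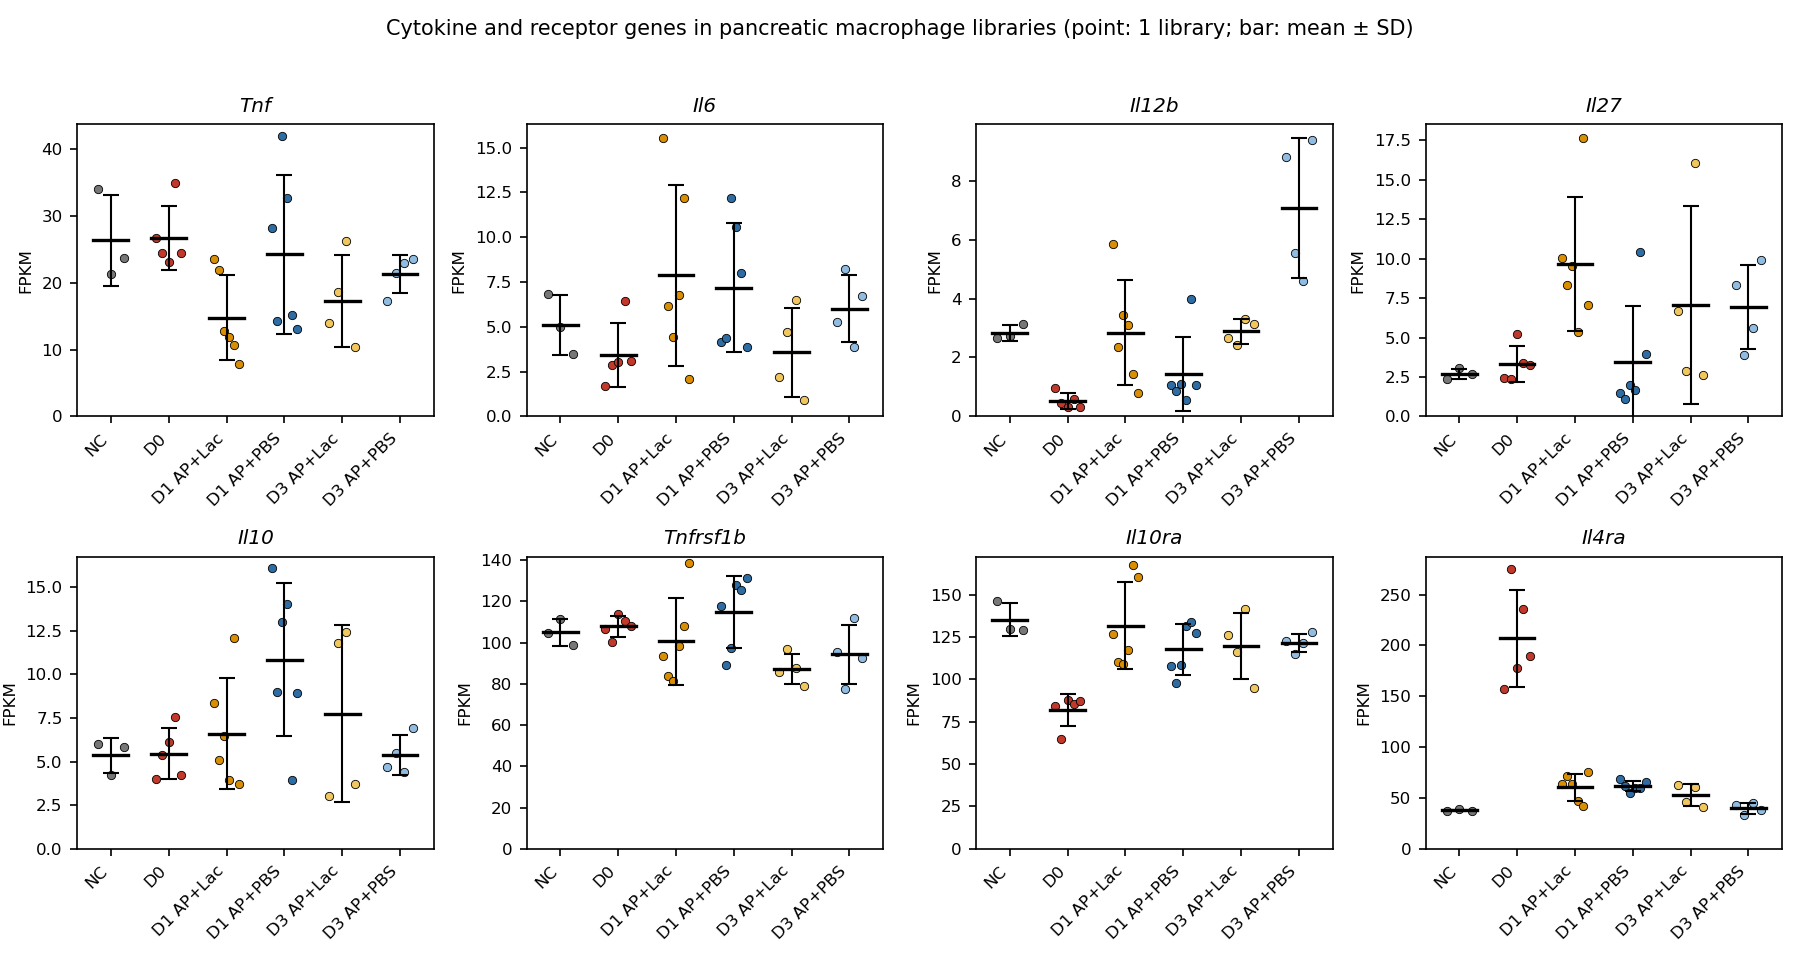
FPKM of the 8 genes (vertical axes, from 0) in each library of the 6 groups; points are libraries, thick bars are means and thin bars are SD, drawn down to 0 at most. Il4ra stands at 157 FPKM or more in the 5 D0 libraries and at 75.2 FPKM or less in all others, and Il12b is highest in the 4 D3 AP+PBS libraries as a group (mean 7.07 FPKM).

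Day 0 of pancreatitis was compared with NC first. Il4ra rose and Il10ra and Il12b fell, while Tnf, Il6, Il27, Il10 and Tnfrsf1b did not pass the test. Thus 3 of 8 genes were called, where 61.1% of the 11960 genes tested were called. In each direction 1 of 8 was higher, where 19.7% of all genes were, and 2 of 8 were lower, where 41.4% were. The median difference of the 8 genes was 0.02 on the log2(FPKM + 1) scale, against -0.22 for all genes tested. Fewer cells of a type and less RNA per cell cannot be told apart in such bulk libraries. At D0, all 8 dendritic cell markers fell (summed 17.1 to 43.1 FPKM per D0 library, against 157 to 211 FPKM in NC). So did 13 of 14 tested T and NK cell markers (17.1 to 73.9 FPKM at D0, against 194 to 334 FPKM in NC), all 9 B and plasma cell markers (17.4 to 68.8 FPKM, against 438 to 528 FPKM) and all 11 acinar markers (394 to 745 FPKM, against 5613 to 9093 FPKM). Of the 8 tested neutrophil markers, 5 rose (summed 261 to 742 FPKM at D0, against 61.5 to 161 FPKM in NC). Of the 12 macrophage markers, 3 rose and 4 fell (summed 11685 to 13052 FPKM at D0, against 15646 to 17352 FPKM in NC). Also lower were 3 of 5 endothelial cell markers and 1 of 7 fibroblast and stellate cell markers. No marker of these lists was at 0 in all libraries of either group. Their part in the differences of the 8 genes was not tested.

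The comparison of day 1 in the PBS arm with day 0 shares the D0 libraries. Il10ra and Il10 rose and Il4ra fell, so that 3 of 8 genes were called where 62.9% of all genes were (2 higher and 1 lower, against 43.0% and 19.8% of all genes). The median difference was 0.30 for the 8 genes and 0.19 for all genes. Markers of other cells were higher in D1 AP+PBS than at D0, with 14 of 14 tested T and NK cell markers (summed 200.2 to 543 FPKM in D1 AP+PBS, against 17.1 to 73.9 FPKM at D0), 9 of 9 B and plasma cell markers (227 to 1375 FPKM, against 17.4 to 68.8 FPKM) and 8 of 8 dendritic cell markers (105 to 188 FPKM, against 17.1 to 43.1 FPKM). So were 7 of 7 fibroblast and stellate cell markers (24.9 to 300.3 FPKM, against 6.77 to 17.8 FPKM), 8 of 11 acinar markers (890.5 to 4912 FPKM, against 394 to 745 FPKM) and 4 of 5 tested mast cell and basophil markers (4.64 to 28.98 FPKM, against 0.332 to 1.92 FPKM). Of 8 tested neutrophil markers 5 fell (59.2 to 219 FPKM, against 261 to 742 FPKM), and of 12 macrophage markers 6 rose and 3 fell. Their part in the Il10, Il10ra and Il4ra differences was not tested. Against NC, 1 of the 8 genes (Il4ra, higher) was still called at day 1 with PBS, where 14.5% of all genes were (5.29% higher and 9.18% lower). From day 1 to day 3 with PBS, Il12b rose and Il4ra fell, 2 of 8 genes where 34.3% of all genes were called (21.5% higher and 12.8% lower). In the same comparison 10 of 12 macrophage markers fell (summed 7623 to 11798 FPKM in D3 AP+PBS, against 12725 to 20834 FPKM in D1 AP+PBS), and 11 of 14 T and NK cell markers rose (664 to 940.2 FPKM, against 200.2 to 543 FPKM). All 8 dendritic cell markers (273 to 344 FPKM, against 105 to 188 FPKM) and 6 of 11 acinar markers rose too (2505 to 19631 FPKM, against 890.5 to 4912 FPKM). Against NC, 1 of 8 genes (Il12b, higher) was called at day 3 with PBS, where 21.2% of all genes were (10.3% higher and 10.9% lower). There 9 of 12 macrophage markers were lower and 11 of 14 T and NK cell markers higher than in NC, while 4 of 8 dendritic cell markers were higher and 1 was lower. The part of these markers in the Il12b and Il4ra differences was not tested.

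Lactate was compared with PBS at each day. At day 1, Il27 rose with lactate, 1 of 8 genes where 9.72% of all genes were called (5.16% higher and 4.56% lower). At day 3, limma called 0 of 8 genes where 0.376% of all genes were called (0.192% higher and 0.184% lower). At day 3, 2 of the 8 (Il12b and Il4ra) had an unadjusted p under 0.05, and the voom fit on recovered fragments also called 0. Of 5 tested mast cell and basophil markers, 2 rose with lactate at day 3 (summed 16.6 to 91.1 FPKM in D3 AP+Lac, against 4.09 to 13.9 FPKM in D3 AP+PBS). The lactate effect at day 3 minus that at day 1 was called for 1 of 8 genes (Il12b, lower), where 10.7% of all genes were called (4.76% higher and 5.94% lower). For that difference, 5 of 12 macrophage markers and 3 of 5 mast cell and basophil markers were higher. Lower were 4 of 14 T and NK cell markers, 3 of 8 dendritic cell markers and 1 of 5 endothelial cell markers. The part of these markers in the lactate differences of the 8 genes was not tested. The comparisons of lactate with PBS and of day 3 with day 1 share the PBS libraries. The median differences of the 8 genes were -0.02 and -0.16 with lactate at days 1 and 3, against 0.02 for all genes at each day.

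**Figure D2:**
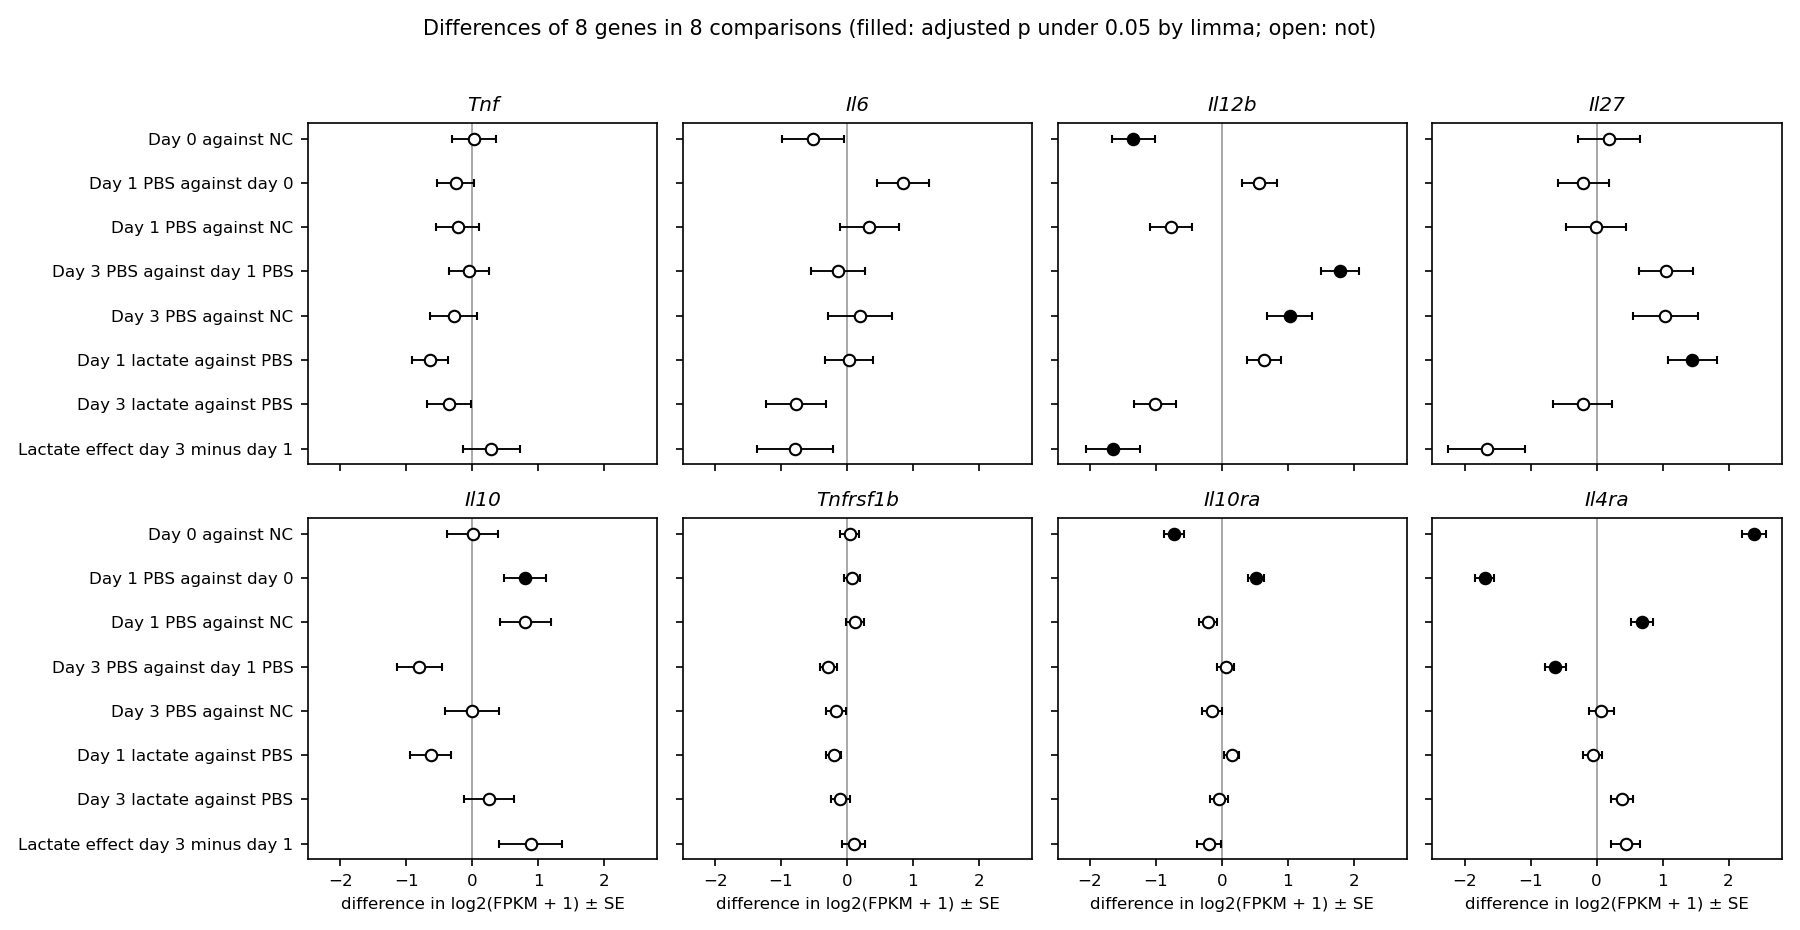
Differences in log2(FPKM + 1) with SE (horizontal axes) for the 8 genes in the 8 comparisons listed down the side; filled points passed adjusted p 0.05 over 11960 genes by limma and open points did not. Il4ra and Il12b were each called in 4 comparisons, Il10ra in 2, Il27 and Il10 in 1, and Tnf, Il6 and Tnfrsf1b in 0.

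Tnf, which encodes the cytokine TNF itself, passed the test in 0 of 8 comparisons. It had 26.4 ± 6.78 FPKM in NC (SD, n = 3), 26.7 ± 4.78 at D0 (n = 5), 14.8 ± 6.41 in D1 AP+Lac and 24.3 ± 11.9 in D1 AP+PBS (n = 6 each), and 17.3 ± 6.88 in D3 AP+Lac and 21.3 ± 2.87 in D3 AP+PBS (n = 4 each). The D1 AP+Lac libraries had a lowest, median and highest value of 7.86, 12.3 and 23.5 FPKM, against 13.2, 21.7 and 42.0 FPKM in D1 AP+PBS. The ranges overlapped, and the difference did not pass the test (log2 difference -0.64, SE 0.27, adjusted p = 0.13 by limma). In both arms the libraries numbered 5 and 6 were among the lowest, at 10.7 and 7.86 FPKM with lactate and 15.2 and 13.2 FPKM with PBS. Without these libraries the means were 17.5 FPKM in D1 AP+Lac and 29.3 FPKM in D1 AP+PBS. At day 3 the 4 lactate libraries had 14.1, 18.6, 26.3 and 10.3 FPKM, against 17.3, 21.5, 23.0 and 23.6 FPKM with PBS, and these overlapped as well (-0.35, SE 0.33, adjusted p = 0.60).

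Il6, the gene of a cytokine that drives the acute-phase response, was low and uneven. Its mean was 5.12 ± 1.67 FPKM in NC (SD, n = 3), 3.44 ± 1.77 at D0 (n = 5), 7.87 ± 5.05 in D1 AP+Lac and 7.18 ± 3.61 in D1 AP+PBS (n = 6 each), and 3.57 ± 2.50 in D3 AP+Lac and 6.02 ± 1.86 in D3 AP+PBS (n = 4 each). No comparison called it. The largest difference was day 1 PBS against day 0 (0.85, SE 0.39, adjusted p = 0.059), where the lowest, median and highest values were 3.86, 6.17 and 12.2 FPKM in D1 AP+PBS and the 5 D0 libraries had 1.71, 2.89, 3.03, 6.44 and 3.12 FPKM. That difference was called without D0 replicate 4 (1.05, adjusted p = 0.028), without any of D1 AP+PBS replicates 1, 2 and 6, and without the day 1 libraries numbered 5 and 6 (0.94, adjusted p = 0.038). Lactate libraries reached both extremes of Il6, with 15.6 FPKM in D1 AP+Lac 1 and 0.907 FPKM in D3 AP+Lac 4.

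Il12b, the p40 gene, and Il4ra passed the test in more comparisons than the other 6 genes, and in opposite directions at day 0, so the sequence just upstream of each gene is shown. RefSeq (GRCm38.p6) promoter sequence was held for 5 of the 8 genes (Tnf, Il6, Il12b, Il4ra and Tnfrsf1b). The 250 bases that end just before the Il12b start lie at chr11:44399813-44400062, plus strand, with capitals at the motif TATATAA.
Il12b: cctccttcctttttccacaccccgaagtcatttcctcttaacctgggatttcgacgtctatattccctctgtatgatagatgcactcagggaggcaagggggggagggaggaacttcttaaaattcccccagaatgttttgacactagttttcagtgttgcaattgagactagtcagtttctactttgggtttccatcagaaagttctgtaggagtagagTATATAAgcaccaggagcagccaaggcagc
This motif, of the TATA box type, begins 30 bases before the start (position -30), and 3.04% of 32851 upstream windows of the same length held it on either strand. The motif was picked after the sequence had been read.

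Il12b had 0.965, 0.456, 0.323, 0.599 and 0.311 FPKM in the 5 D0 libraries, against 2.65, 2.72 and 3.14 FPKM in the 3 NC libraries. The groups did not overlap, and Il12b fell at D0 (log2 difference -1.34, SE 0.33, adjusted p = 0.0012 by limma). The D0 mean of 0.531 ± 0.269 FPKM (SD, n = 5) was 0.187 of the NC mean of 2.84 ± 0.268 FPKM (n = 3). The call was lost under quantile normalization (-0.70, adjusted p = 0.072) and with a lymphocyte covariate (-0.57, SE 0.48, adjusted p = 0.35). With a dendritic cell covariate it was lost too (-1.06, adjusted p = 0.50), while the SE grew from 0.33 to 1.1. Dendritic markers were lowest at D0, with a mean log2 level of 1.19 to 1.52 against 2.68 or more in all other libraries. At D0 that covariate and the group cannot be told apart, so the lost call does not bear on dendritic cells. Lymphocyte markers separated D0 from NC as well, at 1.04 to 2.41 against 3.59 to 4.25 for T and NK cells. For B and plasma cells these levels were 1.35 to 2.57 against 5.19 to 5.47. The call lost with the lymphocyte covariate thus does not bear on lymphocytes. Dendritic cells also make p40, and their part was not tested.

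By day 1, Il12b stood at 1.44 ± 1.26 FPKM in D1 AP+PBS (SD, n = 6), and it was not called against D0 (0.57, adjusted p = 0.069) or NC (-0.77, adjusted p = 0.11). Without D1 AP+PBS 5 the difference from NC was called (-1.0, adjusted p = 0.014), as it was without the libraries numbered 5 and 6 (-1.02, adjusted p = 0.0018). Without D1 AP+PBS 5 the difference from D0 was 0.34 (adjusted p = 0.21), and it was called without D1 AP+PBS 4 (0.68, adjusted p = 0.040). By day 3 with PBS it rose to 8.81, 5.54, 4.58 and 9.36 FPKM, against a lowest, median and highest value of 0.570, 1.07 and 3.98 FPKM in D1 AP+PBS. These libraries did not overlap (1.79, SE 0.29, adjusted p = 1.3e-04), and the D3 mean of 7.07 ± 2.37 FPKM (n = 4) was 4.91 times the D1 mean. Against NC, the same 4 libraries were also higher without overlap (1.03, SE 0.34, adjusted p = 0.035). That call against NC was lost under 10 of 17 alternatives, among them the removal of each NC library in turn (adjusted p = 0.083 to 0.094). With the dendritic marker level in the model, the rise of Il12b from day 1 to day 3 with PBS was 1.64 (SE 0.63, adjusted p = 0.078 by limma). The call of that rise was thus lost, and the difference from NC was 0.96 (SE 0.42, adjusted p = 0.13). The mean log2 marker level did not overlap between D1 AP+PBS (2.68 to 3.39), NC (3.58 to 3.74) and D3 AP+PBS (3.87 to 4.36). The covariate and the group cannot be told apart there, so these lost calls do not bear on dendritic cells.

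The difference of Il12b between lactate and PBS was positive at day 1 and negative at day 3. At day 1 the lowest, median and highest values were 0.784, 2.74 and 5.85 FPKM in D1 AP+Lac, against 0.570, 1.07 and 3.98 FPKM in D1 AP+PBS. The 2 lowest lactate libraries were those numbered 5 and 6, and the highest PBS library was D1 AP+PBS 5. The day 1 difference did not pass the test (0.64, SE 0.26, adjusted p = 0.12), but it did without D1 AP+PBS 5 (0.87, adjusted p = 0.0089) or without D1 AP+Lac 6 (0.83, adjusted p = 0.020). Among the libraries numbered 1 to 4, Il12b averaged 3.69 FPKM with lactate (2.36 to 5.85) and 0.901 FPKM with PBS (0.570 to 1.10), and without the libraries numbered 5 and 6 the difference passed (1.26, SE 0.20, adjusted p = 1.1e-04). In the libraries numbered 5 and 6 alone, the means were 1.12 FPKM with lactate and 2.52 FPKM with PBS, with a difference of -0.62 that was not called. At day 3 the 4 lactate libraries had 2.68, 2.42, 3.31 and 3.12 FPKM, against 8.81, 5.54, 4.58 and 9.36 FPKM with PBS. Each lactate library was lower than each PBS library, but with 11960 genes tested the difference did not pass (-1.01, SE 0.32, unadjusted p = 0.0038 and adjusted p = 0.12 by limma), and its adjusted p ran from 0.056 to 0.27 over 18 alternatives.

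The lactate effect on Il12b itself differed between the days (day 3 minus day 1: -1.65, SE 0.41, adjusted p = 0.013). It was called under 30 of 32 alternatives and lost with the day 1 libraries numbered 5 and 6 alone (-0.40, adjusted p = 0.81) and with the dendritic cell covariate (-1.54, adjusted p = 0.053). Without the libraries numbered 5 and 6 it was -2.28 (adjusted p = 1.6e-05). Of the 8 dendritic cell markers, 4 were higher with lactate at day 1 (summed 150.1 to 267 FPKM in D1 AP+Lac, against 105 to 188 FPKM in D1 AP+PBS). At day 3 their summed level was 150.5 to 183 FPKM with lactate, against 273 to 344 FPKM with PBS, with 0 of 8 called by limma, and their mean log2 levels overlapped (3.45 to 4.02 with lactate and 3.87 to 4.36 with PBS). The difference between the lactate effects was called for 3 of the 8, all lower.

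**Figure D3:**
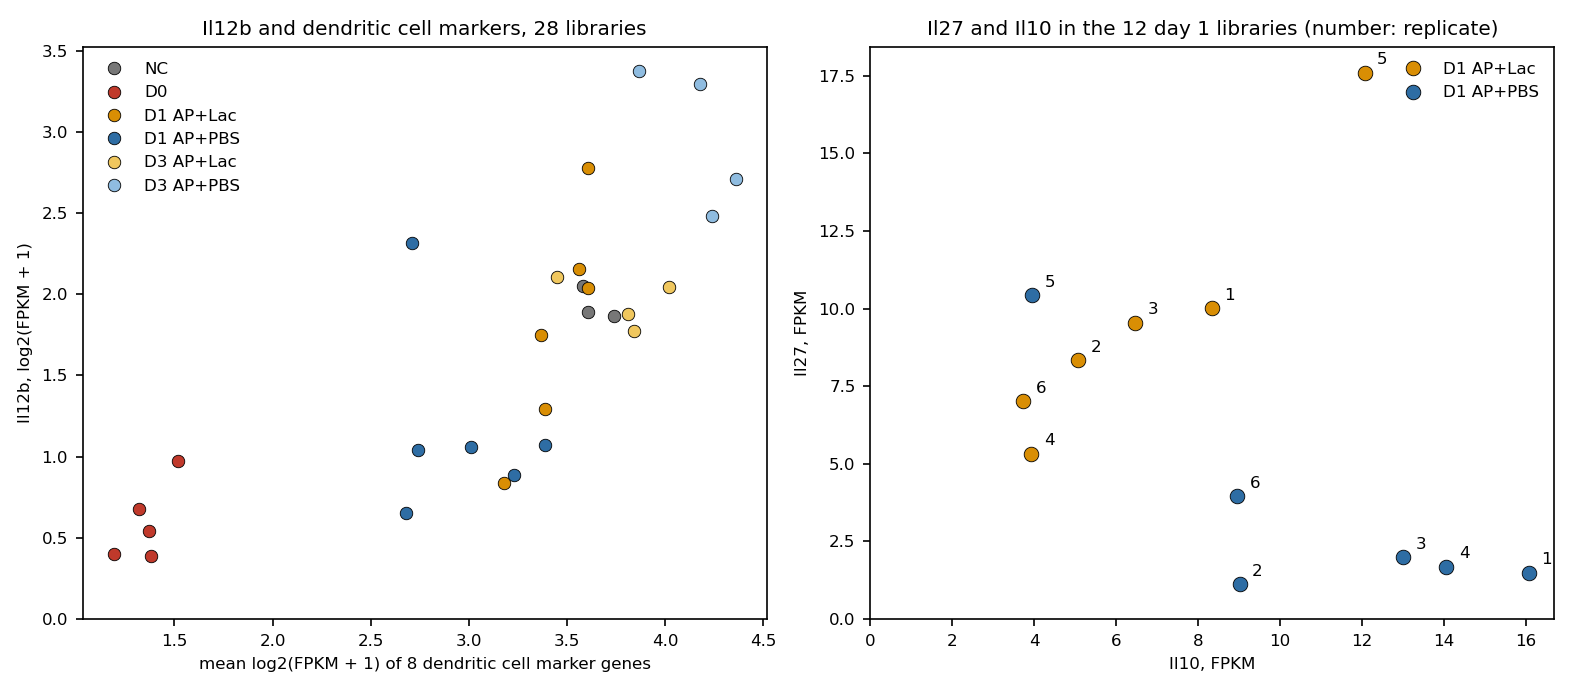
Left, Il12b in log2(FPKM + 1) against the mean log2(FPKM + 1) of 8 dendritic cell marker genes in 28 libraries; right, Il27 against Il10 in FPKM in the 12 day 1 libraries, numbered by replicate. On the left the 5 D0 libraries lie apart at the low end of the marker axis (1.19 to 1.52) and at 0.965 FPKM of Il12b or less, a range that 3 day 1 libraries share; on the right, D1 AP+PBS 5 lies at 3.95 FPKM of Il10 and 10.4 FPKM of Il27, near the lactate libraries.

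Il27, the gene of the IL-27 p28 chain, was the member that rose with lactate at day 1. Its lowest, median and highest values were 5.33, 8.94 and 17.6 FPKM in D1 AP+Lac, against 1.11, 1.85 and 10.4 FPKM in D1 AP+PBS. Of the 6 PBS libraries, 5 lay below all 6 lactate libraries, and D1 AP+PBS 5 at 10.4 FPKM made the ranges overlap. The means were 9.64 ± 4.26 FPKM with lactate and 3.45 ± 3.56 FPKM with PBS (SD, n = 6 each), 2.79 times as high with lactate (log2 difference 1.45, SE 0.37, adjusted p = 0.016 by limma). Without D1 AP+PBS 5 the difference was 1.78 (adjusted p = 4.1e-04), and without the libraries numbered 5 and 6 it was 1.83 (adjusted p = 5.8e-04). The call was lost without D1 AP+PBS 1 (1.34, adjusted p = 0.061), without D1 AP+PBS 4 (1.37, adjusted p = 0.058), and in the libraries numbered 5 and 6 alone (0.70, adjusted p = 1.0). It was also lost when the model held only the day 1 libraries (adjusted p = 0.12), a fit in which 0 of 11960 genes were called and 2282 had an unadjusted p under 0.05. At day 1, 4 of 12 macrophage markers were lower with lactate (summed 7549 to 15953 FPKM in D1 AP+Lac, against 12725 to 20834 FPKM in D1 AP+PBS). Of 14 T and NK cell markers, 3 were higher (summed 266 to 839 FPKM in D1 AP+Lac, against 200.2 to 543 FPKM in D1 AP+PBS), and 4 of 8 dendritic cell markers were higher, as given above. The part of these in the Il27 difference was not tested.

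At the other stages Il27 was not called. It had 2.69 ± 0.342 FPKM in NC (SD, n = 3) and 3.32 ± 1.15 FPKM at D0 (n = 5). By day 3 the 4 lactate libraries had 6.68, 2.85, 16.0 and 2.63 FPKM, against 8.31, 3.89, 5.62 and 9.88 FPKM with PBS. D3 AP+Lac 3 alone was above all PBS libraries, and 2 lactate libraries were below them all, and the difference did not pass (-0.21, SE 0.45, adjusted p = 0.84). The lactate effect at day 3 minus that at day 1 was -1.67 (SE 0.58, adjusted p = 0.064). That difference was called under 9 of 32 alternatives, including the fits without the libraries numbered 5 and 6 (-2.04, adjusted p = 0.0039), D1 AP+PBS 5 (-1.99, adjusted p = 0.0065), D1 AP+Lac 6 (-1.73, adjusted p = 0.048) or D3 AP+Lac 3 (-2.13, adjusted p = 0.015). In the PBS arm, day 3 against day 1 gave 1.05 (SE 0.41, adjusted p = 0.051). It passed without D1 AP+PBS 5 (1.37, adjusted p = 0.0043), without the libraries numbered 5 and 6 (1.57, adjusted p = 0.0013) and without D3 AP+PBS 2 (1.26, adjusted p = 0.041).

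Il10, whose product restrains macrophage activation, was highest in D1 AP+PBS. Its means were 5.35 ± 0.993 FPKM in NC (SD, n = 3), 5.45 ± 1.46 at D0 (n = 5), 6.60 ± 3.18 in D1 AP+Lac and 10.8 ± 4.40 in D1 AP+PBS (n = 6 each), and 7.75 ± 5.07 in D3 AP+Lac and 5.38 ± 1.13 in D3 AP+PBS (n = 4 each). Against D0 it rose in D1 AP+PBS (0.80, SE 0.32, adjusted p = 0.033 by limma), although the libraries overlapped and 12 of 22 alternatives lost the call. Without the libraries numbered 5 and 6 this rise was 1.12 (adjusted p = 0.0021), and Il10 was then also called in D1 AP+PBS against NC (1.13, adjusted p = 0.021, against 0.81 and 0.16 with all libraries) and in D3 AP+PBS against D1 AP+PBS (-1.13, adjusted p = 0.0063, against -0.80 and 0.070). Both were called without D1 AP+PBS 5 alone as well (1.04, adjusted p = 0.042, and -1.03, adjusted p = 0.013). With lactate at day 1, the lowest, median and highest values were 3.73, 5.77 and 12.1 FPKM, against 3.95, 11.003 and 16.1 FPKM with PBS. This difference did not pass (-0.63, SE 0.31, adjusted p = 0.20). D1 AP+PBS 5 was the lowest PBS library and D1 AP+Lac 5 the highest lactate library. Without D1 AP+PBS 5 the difference passed (-0.86, adjusted p = 0.036), as it did without the libraries numbered 5 and 6 (-1.03, SE 0.31, adjusted p = 0.017), where 4 lactate libraries averaged 5.95 FPKM (3.93 to 8.34) and 4 PBS libraries 13.0 FPKM (9.01 to 16.1). At day 3 the lactate libraries split into 3.04 and 3.71 FPKM and 11.8 and 12.4 FPKM, while the PBS libraries lay between 4.40 and 6.93 FPKM. The lactate effect at day 3 minus that at day 1 was 0.89 (adjusted p = 0.24), and it was called without the libraries numbered 5 and 6 (1.29, adjusted p = 0.032).

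Tnfrsf1b, which encodes TNF receptor 2, passed the test in 0 of 8 comparisons. It had 105 ± 6.50 FPKM in NC (SD, n = 3), 108 ± 4.98 at D0 (n = 5), 100.6 ± 21.0 in D1 AP+Lac and 115 ± 17.4 in D1 AP+PBS (n = 6 each), and 87.4 ± 7.25 in D3 AP+Lac and 94.4 ± 14.2 in D3 AP+PBS (n = 4 each). Its largest difference was day 3 against day 1 with PBS (-0.28, SE 0.13, adjusted p = 0.093). That one passed without D1 AP+PBS 2 (-0.35, adjusted p = 0.034) or D3 AP+PBS 3 (-0.36, adjusted p = 0.049). Lactate against PBS gave -0.20 (SE 0.11) at day 1 and -0.10 (SE 0.14) at day 3, and the day 1 value passed without D1 AP+Lac 6 (-0.29, adjusted p = 0.047).

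Il10ra, the ligand-binding chain of the IL-10 receptor, was lowest at D0. The 5 D0 libraries had 84.5, 65.0, 87.7, 85.3 and 87.3 FPKM, against 147, 129.8 and 129 FPKM in the 3 NC libraries. The groups did not overlap, and Il10ra fell at D0 (-0.72, SE 0.15, adjusted p = 1.6e-04 by limma). It rose again in D1 AP+PBS, whose lowest, median and highest values were 98.1, 118 and 134 FPKM, above each D0 library (0.52, SE 0.12, adjusted p = 7.1e-04). Both calls were lost when libraries were scaled by their median ratio (-0.42, adjusted p = 0.061, and 0.24, adjusted p = 0.19), a scaling that moved the median of all genes by 0.25 and -0.22. Its later means were 132 ± 25.7 FPKM in D1 AP+Lac and 118 ± 14.9 in D1 AP+PBS (SD, n = 6 each), and 119.8 ± 19.5 in D3 AP+Lac and 122 ± 5.38 in D3 AP+PBS (n = 4 each). The differences with lactate, 0.15 (SE 0.11) at day 1 and -0.04 (SE 0.14) at day 3, did not pass. The 2 highest day 1 libraries of Il10ra were D1 AP+Lac 5 and 6, at 167 and 160.5 FPKM.

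Il4ra, the signalling chain shared by the receptors of IL-4 and IL-13, changed most. The RefSeq bases upstream of its start lie at chr7:125552021-125552270 (GRCm38.p6), plus strand, with capitals at matches of the motif ATGNAAAT.
Il4ra: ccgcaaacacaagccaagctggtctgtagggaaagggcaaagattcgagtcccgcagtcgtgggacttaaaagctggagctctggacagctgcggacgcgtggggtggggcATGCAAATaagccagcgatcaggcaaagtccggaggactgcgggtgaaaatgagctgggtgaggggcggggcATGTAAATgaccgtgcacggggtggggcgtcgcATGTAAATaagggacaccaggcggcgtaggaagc
This octamer-like motif was searched on both strands and began at positions -139, -67 and -34. At least 1 match was held by 5.03% of the 32851 upstream windows, and the motif was chosen after the sequence had been read. None of the motifs TTCNNNNGAA (STAT6 type), TTGCNNAA (C/EBP), TTCNNNGAA (GAS), TGANTCA (AP-1), GAAANNGAAA (ISRE core) or the NF-kB consensus was found in the Il4ra or Il12b window, which says nothing about the factors. These motifs were held by 5.85%, 9.56%, 7.02%, 6.75%, 2.98% and 7.25% of the windows, in that order.

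Il4ra had 157, 275, 178, 236 and 190.0 FPKM in the 5 D0 libraries, against 37.1, 38.7 and 37.6 FPKM in the 3 NC libraries. The lowest D0 library was above every library of the other 5 groups. The D0 mean of 207 ± 47.7 FPKM (SD, n = 5) was 5.48 times the NC mean of 37.8 ± 0.801 FPKM (n = 3), and Il4ra rose by 2.39 on the log2 scale (SE 0.18, adjusted p = 4.7e-11 by limma). With the dendritic cell covariate the rise was 1.54 (SE 0.57, adjusted p = 0.056), and the other 17 alternatives kept the call. In D1 AP+PBS it fell to a lowest, median and highest value of 54.9, 61.1 and 68.5 FPKM, all under the D0 values (-1.70, SE 0.15, adjusted p = 8.9e-10), yet it was still higher than in NC without overlap (0.69, SE 0.17, adjusted p = 0.0064). The call against NC was lost with the acinar covariate (0.45, adjusted p = 0.12) and the dendritic cell covariate (0.44, adjusted p = 0.17). That against D0 was lost with the dendritic cell covariate (-1.10, SE 0.41, adjusted p = 0.060). The mean log2 level of dendritic markers did not overlap between D0 (1.19 to 1.52), D1 AP+PBS (2.68 to 3.39), NC (3.58 to 3.74) and D3 AP+PBS (3.87 to 4.36). This covariate and the group thus cannot be told apart in these comparisons, and calls lost with it do not bear on dendritic cells. Acinar markers were lower at day 1 without overlap (7 of 11 fell, with 890.5 to 4912 FPKM summed in D1 AP+PBS, against 5613 to 9093 FPKM in NC). The call against NC that was lost with the acinar covariate thus does not bear on acinar RNA. By day 3 with PBS Il4ra fell further, to 42.7, 33.6, 45.4 and 37.8 FPKM (-0.63 against D1 AP+PBS, SE 0.16, adjusted p = 0.0042). That call was lost with the acinar covariate (-0.43, adjusted p = 0.056) and the dendritic cell covariate (-0.18, adjusted p = 0.73). Against NC the difference was 0.07 (SE 0.19, adjusted p = 0.83).

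Lactate did not go with a called difference in Il4ra. At day 1 the means were 60.5 ± 13.1 FPKM with lactate and 61.9 ± 4.85 FPKM with PBS (SD, n = 6 each). At day 3 the lactate libraries had 62.9, 46.0, 60.4 and 41.3 FPKM, against 42.7, 33.6, 45.4 and 37.8 FPKM with PBS. The D3 AP+Lac mean of 52.6 ± 10.6 FPKM was 1.32 times the D3 AP+PBS mean of 39.9 ± 5.23 FPKM (SD, n = 4 each), with overlap (0.38, SE 0.17, unadjusted p = 0.037 and adjusted p = 0.25 by limma). In the order of group means, D0 stood apart and each of the other neighbours overlapped.

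The other genes of the 5 cytokine pathways were read from lists of 76 ligands, receptors, transducers, inhibitors and targets, of which 68 passed the filter. Il12a, Il23a, Il4 and Il13, the ligand genes that pair with Il12b or bind the Il4ra chain, were among the 8 that did not, and none of them exceeded 1.24 FPKM in any library. At day 0 against NC, 9 of 68 rose (19.7% of all genes did) and 30 fell (41.4% of all genes did), with a median difference of -0.28 against -0.22 for all genes. These counts lie near those shares. Of the 25 tested TNF pathway genes, the largest list, 15 fell and 3 rose. The adaptor gene Traf1 fell (5.80 FPKM at D0 and 26.6 FPKM in NC), and the ubiquitin ligase gene Birc3 fell (19.0 and 41.4 FPKM). Tradd, the adaptor of TNF receptor 1, rose (26.9 FPKM at D0 and 16.1 FPKM in NC). In the IL-12 family list 0 of 10 rose and 5 fell, among them Ebi3, the partner chain of the Il27 product (13.4 FPKM at D0 and 38.0 FPKM in NC), Il27ra, the IL-27 receptor (2.03 and 13.1 FPKM), and Batf3, a transcription factor of dendritic cells (10.6 and 49.7 FPKM). Osm, the gene of the IL-6 family cytokine oncostatin M, rose (108 FPKM at D0 and 17.1 FPKM in NC), while Lifr, the receptor gene of leukemia inhibitory factor, fell (11.4 and 31.1 FPKM). Of the 11 tested IL-4 pathway genes, 1 rose and 4 fell, including the transcription factor gene Klf4 (14.7 and 53.6 FPKM).

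At day 1 with PBS against day 0, a comparison that shares the D0 libraries, 33 of 68 rose and 11 fell (median 0.30, all genes 0.19), where 43.0% of all genes rose and 19.8% fell, so these counts too lie near the shares over all genes. The TNF list had 15 of 25 that rose and 3 that fell, with Tnfaip3, the NF-kB inhibitor A20, at 68.4 FPKM in D1 AP+PBS and 23.6 FPKM at D0. In the IL-12 family list 7 of 10 rose and 0 fell, with Ebi3 at 26.9 and 13.4 FPKM and the signal transducer Stat4 at 11.6 and 3.98 FPKM. Osm fell (35.2 FPKM in D1 AP+PBS and 108 FPKM at D0), and Socs3, a feedback inhibitor of IL-6 signalling, rose (262 and 129.99 FPKM). From day 1 to day 3 with PBS, 29 of 68 rose and 12 fell (median 0.28, all genes 0.10), where 21.5% of all genes rose and 12.8% fell. The IL-12 family list had 8 of 10 that rose and 0 that fell, in the comparison in which Il12b rose as well, and 5 of 10 that rose with the compared groups only. They included Il12rb1, a receptor chain for p40 (3.70 FPKM in D3 AP+PBS and 1.57 FPKM in D1 AP+PBS), and Irf8, a transcription factor of dendritic cells and macrophages (149.6 and 111 FPKM). In the same comparison 11 of 14 T and NK cell markers and 8 of 8 dendritic cell markers rose, while 10 of 12 macrophage markers fell. The part of other cells in the counts of these lists was not tested.

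**Figure D4:**
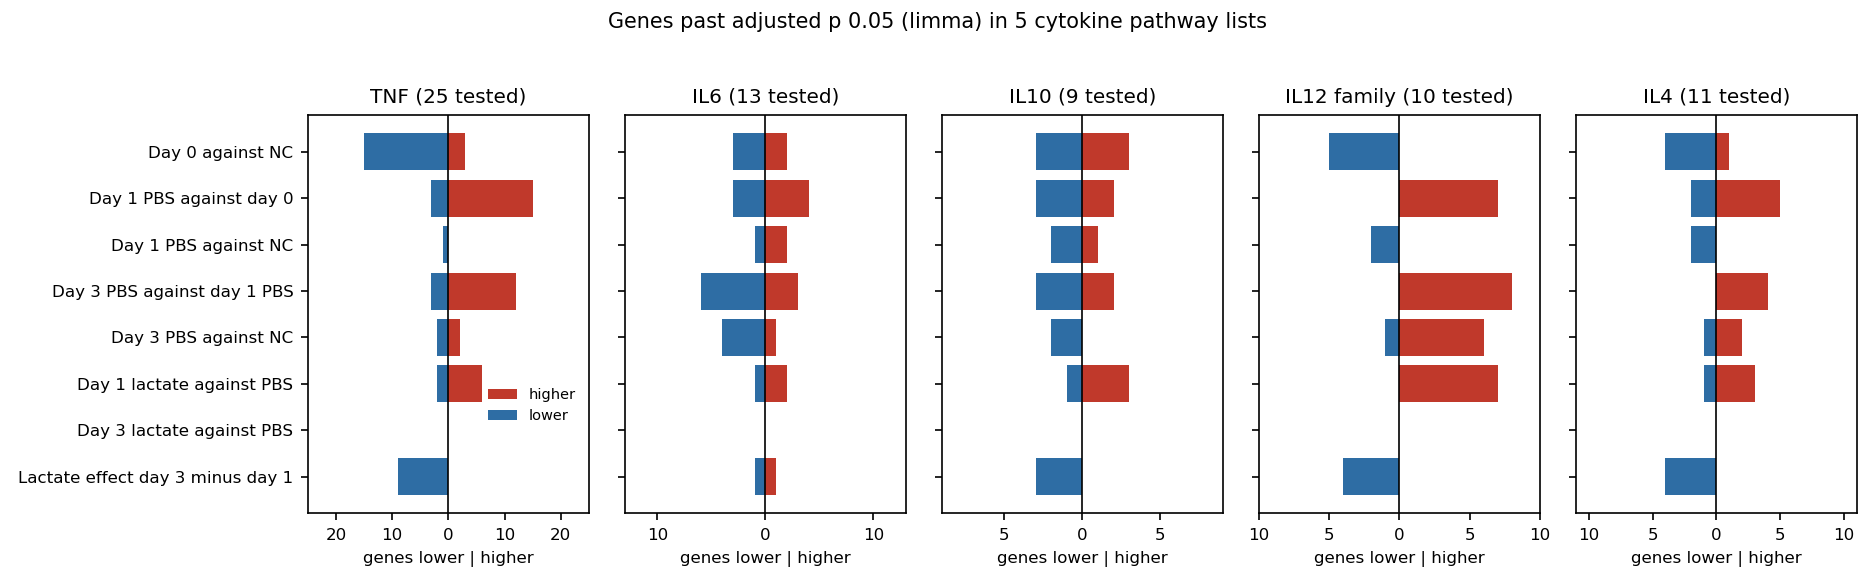
Number of genes of 5 pathway lists that were higher (right of 0) or lower (left of 0) at adjusted p 0.05 by limma, for the 8 comparisons listed down the side. The IL-12 family list has 7 of 10 higher with lactate at day 1, where 5.16% of all genes were higher. It has 0 called at day 3, where 0.376% of all genes were called.

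With lactate against PBS at day 1, 21 of 68 pathway genes rose and 5 fell, with a median of 0.19 against 0.02 for all genes, where 5.16% of all genes rose and 4.56% fell. Without the libraries numbered 5 and 6, 28 rose and 11 fell, where 16.4% and 12.3% of all genes did. With the compared groups only, limma called 0 of the 68, in the fit named above in which it called 0 of 11960 genes, and with the libraries numbered 5 and 6 alone it also called 0 of 11960 genes (394 at an unadjusted p under 0.05). The IL-12 family list held 7 of those that rose, of 10 tested, and 0 that fell, with a list median of 0.67. Socs1, a feedback inhibitor of cytokine signalling, had 23.1 FPKM with lactate and 8.09 FPKM with PBS (1.70, SE 0.34, adjusted p = 0.0095 by limma), and Il12rb1 had 3.73 and 1.57 FPKM. In the other lists, Il1rn, the IL-1 receptor antagonist and a target of IL-10, rose (71.3 FPKM with lactate and 31.5 FPKM with PBS), Jak2, a kinase of cytokine receptors, rose (22.05 and 13.0 FPKM), and Socs3 fell (164 and 262 FPKM). Il2rg, the common chain that pairs with the Il4ra product, rose (234 and 155 FPKM). The highest D1 AP+Lac library had 104.8 FPKM of Il1rn and 264 FPKM of Il2rg, against 129.97 and 308 FPKM in the highest D1 AP+PBS library, so these genes overlapped between the arms. The part of other cells in these day 1 counts was not tested. At day 3, 0 of 68 were called by limma, with a median of -0.11. There 0.192% of all genes rose and 0.184% fell, so the count of 0 lies near those shares. The difference between the lactate effects was called for 22 of 68, with 21 lower and 1 higher, where 5.94% and 4.76% of all genes were, and Socs2, a feedback inhibitor of cytokine receptors (-1.54, SE 0.28), was among those lower.

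Genes whose levels ran most like those of each member were ranked by Pearson r of log2(FPKM + 1) over the 28 libraries among 7473 candidates. The libraries share group, cell content and depth, and r is given as a description only. The closest likeness was between Il4ra and Snx1 (r = 0.967), a sorting nexin gene, followed by Sfxn5 (0.958) and Mmp19 (0.954). Il27 was nearly as closely matched, by Casp4 (0.958), Irgm2 (0.947) and Samhd1 (0.944). Il12b was matched by Zfp869 (0.909), Rictor (0.903) and Zfp160 (0.899), and Il10ra by BC028528 (0.885), Tmcc3 (0.865) and Prkcd (0.851). Tnf was closest to the transcription factor gene Ets2 (0.845), then Phlda1 (0.764) and Fosl2 (0.730). Tnfrsf1b was matched by Ppp1r9b (0.790) and Srd5a3 (0.787), Il10 by Map3k8 (0.745), Plk2 (0.725) and Nfkbiz (0.723), and Il6 by Mcl1 (0.736), Ccrl2 (0.709) and Ccnl1 (0.695).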

How the data were processed

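Per the labels' protocols, each of the 28 libraries started from 10 ng of total RNA of macrophages sorted out of mouse pancreas. What the authors deposited is a single table of FPKM by gene. Of tools, fastp and R 3.2.0 appear in the submitters' processing notes. Aligner, counter, strand setting and genome build: not given in the sources used here, so reads of overlapping genes may be misassigned. Because FPKM is a share of each library's mapped fragments, a larger share of RNA from other cells goes with lower values of the rest. Fragment numbers were recovered from the steps of the values, of which 99.97% were whole within a tolerance of 0.0001. Libraries of a group were compared in 55 pairs by chi-square, and every pair differed (lowest value per degree of freedom 26.4).

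Groups and replicate numbers came from the sample titles. Tests used log2(FPKM + 1), which understates the change of low values, on the 11960 genes at 1 FPKM or more in at least 3 libraries. A limma 3.58.1 model (R 4.3.3) with 6 group means and moderated variances (trend, robust) gave two-sided p-values with Benjamini-Hochberg adjustment across the genes tested in each comparison (threshold 0.05). The fit was tested on simulated data. Alternatives were an offset of 0.1, no filter, quantile normalization, median-ratio scaling, voom on the recovered fragments, a replicate block, lymphocyte and acinar covariates, the compared groups only, and leaving out each library. Leaving out, or using alone, the day 1 libraries numbered 5 and 6 and a dendritic cell covariate were chosen after seeing the data.

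The 8 genes and the pathway and marker lists were chosen with earlier results of these data known. All 8 are named. A pathway list gives up to 3 called genes with the smallest p in a comparison. Each member gets the 3 genes of highest Pearson r among those with a mean of at least 5 FPKM, gene models left out. Some genes that these rules pick are not reported here. Other genes are named only where a result turns on them.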

Additional observations from a re-analysis of the deposited data

Results flagged for a closer look

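Among 40 sets of 4 to 6 libraries of 1 gene in 1 group, 3 were flagged for a library far from the nearest other one relative to the range. Chance alone gives about 1 in 20 sets, and 3 of 40 lies near that rate. Sets that were not flagged could also hold a wide gap, such as Il6 at D0 (1.71 to 6.44 FPKM), where the library next to the highest was at 3.12 FPKM. Il12b was at 3.98 FPKM in D1 AP+PBS 5, where the next PBS library was at 1.10 FPKM. In the same library Il27 was at 10.4 FPKM, where the next was at 3.97 FPKM. Il10ra was at 65.0 FPKM in D0 2, where the next D0 library was at 84.5 FPKM, and that library also held the highest Il4ra value (275 FPKM).

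For Il12b the lactate effect differed between the days, with a value of -1.65 (day 3 minus day 1, SE 0.41, adjusted p = 0.013 by limma). Its own lactate differences were -1.01 at day 3 and 0.64 at day 1, and neither passed alone.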

How the results depend on the processing

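Over the 8 genes and 8 comparisons, 1376 alternative values were computed. Of these, 1276 kept their call or their lack of one, 40 lost the call and 55 gained it. Another 5 reversed, which means they were called in the opposite direction. Values not called in either fit counted as kept whatever their sign. Il12b in day 1 lactate against PBS was such a case (0.64, and -0.62 with the libraries numbered 5 and 6 alone). Tnfrsf1b reversed at day 0 against NC with the lymphocyte (-0.52) and dendritic (-1.26) covariates. Il27 reversed there with the acinar (-1.87) and dendritic (-4.35) covariates, and in day 1 PBS against day 0 with the dendritic covariate (2.99). None of these 3 differences was called without a covariate. The mean log2 level of the dendritic markers was 1.19 to 1.52 in the D0 libraries and 2.68 or more in all others, so at D0 this covariate and the group cannot be told apart. The least depth was that of Il12b, with 32 to 98 fragments per D0 library.

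Quantile normalization and median-ratio scaling moved the median of all genes by 0.27 and 0.25 for day 0 against NC, by -0.23 and -0.22 for day 1 PBS against day 0, and by -0.11 each for day 3 against day 1 with PBS. Higher genes were 56.4% and 53.4% of those called at day 0 (32.3% without scaling), 43.6% and 46.0% in day 1 PBS against day 0 (68.4%), and 44.8% and 43.2% in day 3 against day 1 (62.6%). With median-ratio scaling they were 32.3% in day 3 PBS against NC (48.8%) and 65.8% in day 3 lactate against PBS (51.1%).

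Among the moves in the calls of the 8 genes were the following, and not all are listed. Day 0 against NC (3) lost Il12b under quantile normalization (adjusted p = 0.072 by limma) and Il10ra under median-ratio scaling (adjusted p = 0.061). It gained Il27, as lower, with the acinar covariate (adjusted p = 0.012). The lymphocyte covariate lost Il12b (adjusted p = 0.35) and gained Tnfrsf1b, as lower (adjusted p = 0.017). Day 1 PBS against day 0 (3) gave 1 with median-ratio scaling and 5 with the replicate block. In these fits 3625 and 5314 of the 11960 genes were higher, and 4263 and 2376 were lower. Day 1 PBS against NC (1) gave 2 with the lymphocyte covariate, 0 with the acinar covariate, and 3 without the day 1 libraries numbered 5 and 6. In that last fit 8.82% of all genes were higher and 10.4% lower. Day 3 PBS against day 1 PBS (2) gave 4 without the libraries numbered 5 and 6, where 25% of all genes were higher and 16.4% lower. It gained Il27 with an offset of 0.1, voom, the replicate block or the lymphocyte covariate, and Il10 under quantile normalization. The acinar covariate gained Il27 and Il10 and lost Il4ra. Day 3 PBS against NC (1) gave 0 with an offset of 0.1, no filter or median-ratio scaling, and 2 with the compared groups only. With the compared groups only, 1667 of the 11960 genes were higher and 1295 lower. Day 1 lactate against PBS (1) gave 0 with the compared groups only, 3 without the libraries numbered 5 and 6, 0 with those alone, and 2 with the dendritic covariate. Without the libraries numbered 5 and 6, 16.4% of all genes were higher and 12.3% lower. The difference between the lactate effects (1) gave 2 with voom, the replicate block or any of the 3 covariates, 3 without the libraries numbered 5 and 6, and 0 with those alone.

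The number of all genes called moved as well. Day 0 against NC (7309) gave 3354 with the acinar and 2426 with the dendritic covariate. With the lymphocyte and dendritic covariates, day 1 PBS against day 0 (7521) gave 4621 and 2206, day 1 PBS against NC (1731) gave 2672 and 2819, and day 3 PBS against day 1 PBS (4103) gave 2250 and 1477. Day 1 lactate against PBS (1162) gave 616 with no filter, 3426 without the libraries numbered 5 and 6, 0 by limma with those alone (394 at an unadjusted p under 0.05), and 0 by limma with the compared groups only (2282 at an unadjusted p under 0.05). Day 3 lactate against PBS (45) gave 11 with an offset of 0.1, 104 with no filter, 213 with quantile normalization, 76 with median-ratio scaling, 24 with voom, 122 with the replicate block and 8 with the compared groups only. It gave 349, 659 and 1692 with the lymphocyte, acinar and dendritic covariates. The difference between the lactate effects (1280) gave 546 with the compared groups only, 3408 without the libraries numbered 5 and 6, 0 by limma with those alone (1062 at an unadjusted p under 0.05), and 2904 with the dendritic covariate.

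With 1 library left out, day 0 against NC gave 3 to 3 of the 8 genes and 6181 to 7079 of all genes, and day 1 PBS against day 0 gave 2 to 4 and 7027 to 7543. Day 1 PBS against NC gave 1 to 3 and 937 to 1933, moved by NC 1, NC 3 and D1 AP+PBS 5. Day 3 PBS against day 1 PBS gave 2 to 4 and 2996 to 4660, moved by D1 AP+PBS 5. Day 3 PBS against NC gave 0 to 1 and 1188 to 2335, moved by each NC library and D3 AP+PBS 1 and 4. Day 1 lactate against PBS gave 0 to 3 and 191 to 2380, moved by D1 AP+Lac 1, 3, 4 and 6 and D1 AP+PBS 1, 4 and 5. Day 3 lactate against PBS gave 0 to 0 and 0 to 163, moved by each day 3 library. The difference between the lactate effects gave 1 to 2 and 622 to 2262, moved by D1 AP+Lac 6, D1 AP+PBS 1, 4 and 5, D3 AP+Lac 2 and 3 and D3 AP+PBS 1. The cause of these changes was not tested.

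Same-numbered libraries of different groups had a median correlation of deviations of -0.017 over 59 pairs. Between the day 1 arms it ran from -0.34 to 0.61 (median 0.42), so the numbers were not taken to pair the libraries. With the replicate block, Il6 (1.04, adjusted p = 0.022) and Il12b (0.68, adjusted p = 0.032) were called in day 1 PBS against day 0. So was Il27 in day 3 PBS against day 1 PBS (1.27, adjusted p = 0.013) and in the difference between the lactate effects (-1.67, adjusted p = 0.033).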
